A study of Drosophila melanogaster with 4 samples.

Results

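The genes described here are 8 genes by which the epidermal growth factor receptor (EGFR) and the dorsoventral axis pattern the follicle cells of the fly ovary: Egfr, rho, kek1, aos, sty, mirr, pip and ndl. They were chosen by name, with earlier results of these data known. Their 23 RefSeq transcript rows were summed per gene, giving 8 of the 18174 genes and other features in the expression table. All 8 passed the filter on low counts and were among the 10524 features tested. The RNA came from ovaries of adult Drosophila melanogaster, 10 to 15 pairs per library, and was enriched for poly(A) tails; each of the 2 groups has 2 libraries. The Control group is the cross labelled mat>Luc. The other group, Nup358GLKD, had the nucleoporin Nup358 knocked down in the germline. The labels do not give the driver, the hairpin or the age in days of the knockdown flies. They call the libraries biological repeats and say no more of their origin, so the p-values measure the spread between these samples, which may be technical.

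EGFR signalling in the ovary starts in the germline. The oocyte secretes the TGF-alpha-like ligand Gurken (grk) from its dorsal anterior corner, and the overlying follicle cells receive it through Egfr, which signals through Ras and MAP kinase. The follicle cells then make a second round of ligand through the protease Rhomboid and limit the response with inhibitors that the pathway itself turns on, among them Argos, Kekkon-1 and Sprouty. Where the signal is high, Mirror marks dorsal fate and the sulfotransferase gene pip is kept off. Where it is low, pip stays on, and its product, with the protease Nudel and a chain of proteases made in the germline, sets the ventral side of the embryo.

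The libraries held 58876800 to 60792292 expected counts. The targeted gene Nup358 had 658.4 and 617.6 CPM (read counts scaled to library size with TMM factors) in Control replicates 1 and 2, and 287.1 and 151.5 CPM in Nup358GLKD replicates 1 and 2. That left 45.0% and 23.75% of the Control mean. All tests are edgeR's quasi-likelihood F-test with a Benjamini-Hochberg adjusted p under 0.05 as threshold, which Nup358 itself missed (adjusted p = 0.0579). Whole ovaries also hold follicle cells, which a germline knockdown does not target. Ovarian identity was clear from the germline marker osk, at 1707 to 2044 CPM in the 4 libraries.

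Nup358GLKD replicate 1 stood apart from the other 3 libraries in its cell and stage markers. The 8 muscle sheath markers summed to 1324 CPM in it, against 240.2 to 305.8 CPM in the others. The 9 late chorion genes summed to 4293 CPM, against 16525 to 18255 CPM, and the 6 vitelline membrane genes of mid oogenesis to 3341 CPM, against 7534 to 9657 CPM. The 6 fat body markers summed to 900.1 CPM against 116.4 to 189.7 CPM. Most of it came from the collagen gene Col4a1, at 860.1 CPM in replicate 1 and 131.4 CPM in replicate 2. The other fat body markers (Lsp2, Lsp1beta, Fbp1, Fbp2 and apolpp) were all higher in replicate 2 than in replicate 1. Each lay above Control in both knockdown libraries. apolpp had 14.4 and 9.28 CPM in Control and 21.2 and 36.0 CPM after knockdown. The storage protein gene Lsp2 had 0.27 and 0.724 CPM in Control and 16.4 and 18.0 CPM after knockdown. The hemocyte markers summed to 82.4 and 90.0 CPM in Control and to 171.6 and 120.4 CPM after knockdown. Most of this was srp, at 75.7 and 84.9 CPM in Control and 109.65 and 114.0 CPM after knockdown. Pxn was high in replicate 1 only (54.3 CPM, against 5.19 CPM in replicate 2). He had 0 counts in Control and 1 and 0 after knockdown. The 8 somatic follicle cell markers (tj, Fas3, slbo, Cad99C, cas, eya, upd1 and ct) summed to 287.1 and 245.0 CPM in Control and to 715.4 and 457.0 CPM after knockdown, with a median log2 change of 1.23. None of them was at 0, and 1 of 8, Fas3, passed the test as higher. The 10 germline markers summed to 4182 and 4122 CPM in Control and 4666 and 4893 CPM after knockdown, with osk the largest part in every library. They went both ways, with a median log2 change of −0.036 and a range from −1.195 (bam) to 0.887 (ovo), and 0 of 10 passed. In RNA from whole ovaries, a change in the number of cells of a type and a change of RNA per cell cannot be told apart, and the part of these markers in the results that follow was not tested. The results for the 8 genes are therefore also given for each knockdown library.

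Of the 8 genes, 4 rose in the Nup358 knockdown (Egfr, kek1, aos and pip), 0 fell, and 4 did not pass (rho, sty, mirr and ndl). Over all features tested, 8.77% passed as higher and 8.01% as lower. For 5 of the 8 genes the 2 knockdown values were both higher than either Control value, beside 37.9% of all features, and for 1 both were lower, beside 39.9%. The median log2 change of the 8 was 1.18, beside 1.23 for the follicle cell markers and 0.002 over all features. Without Nup358GLKD replicate 1 the medians were 0.891 for the 8 genes and 0.571 for the markers, and without replicate 2 they were 1.354 and 1.663. DESeq2 also passed 4 as higher and 0 as lower, in a test that passed 18.8% of features as higher and 17.3% as lower. At an unadjusted p under 0.05 edgeR had 4 higher and 0 lower. The share of all features at that p was not at hand, so this count is not read as a result about the 8 genes. Leaving out either Control replicate 1 or Control replicate 2, no feature at all passed in edgeR. The log2 changes in these 2 fits were 1.770 and 1.547 for Egfr and 2.464 and 2.389 for kek1. They were 1.394 and 1.225 for aos and 2.392 and 2.042 for pip. There the spread comes from the knockdown libraries alone. With only Nup358GLKD replicate 2 as the knockdown, 5 of the 8 passed as higher (29.4% of features), and with only replicate 1, 7 did (36.2%). In the latter fits it comes from the Control libraries alone. In Nup358GLKD replicate 2 the muscle sheath and late chorion sums (283.3 and 16525 CPM) lay near those of Control. Its follicle cell marker sum (457.0 CPM) did not, being above the 287.1 and 245.0 CPM of Control. In that library the 4 genes that rose stood 2.31-fold (Egfr), 3.31-fold (kek1), 2.39-fold (aos) and 4.17-fold (pip) above the Control mean.

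**Figure D1:**
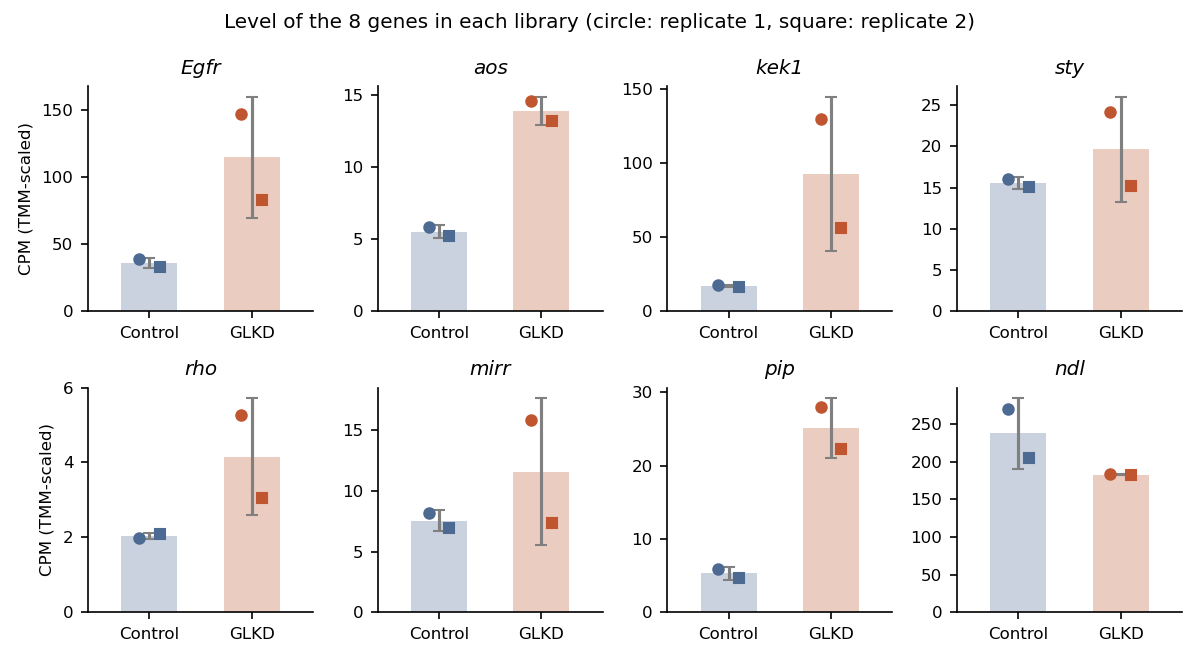
Level of each gene in each library, in TMM-scaled CPM on linear axes that start at 0. Bars are means of 2 libraries, error bars are SD, circles are replicate 1 and squares replicate 2. For Egfr, aos, kek1, rho and pip every knockdown point lies above the Control points, for ndl below, and for sty and mirr the groups overlap.

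Egfr (CG10079, chromosome arm 2R), the receptor tyrosine kinase of the pathway, had 38.3 and 32.9 CPM in Control and 146.3 and 82.3 CPM after knockdown. Both knockdown libraries were high, replicate 1 at 1.78 times replicate 2. The mean went from 35.6 ± 3.87 CPM to 114.3 ± 45.2 CPM (SD, n = 2 each), a 3.21-fold rise (log2 change 1.68, SE 0.33, edgeR adjusted p = 0.0479). The call was close to the threshold and was lost without a low-count filter (adjusted p = 0.0563). The log2 change was 1.21 without Nup358GLKD replicate 1 and 2.01 without replicate 2.

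The annotated transcripts of Egfr start from different first exons, and the deposited table has a row for each of 2 RefSeq transcripts. The row NM_057410 carried 27.0 and 24.5 CPM in Control and 129.3 and 70.7 CPM after knockdown. The row NM_057411 carried 11.3 and 8.35 CPM in Control and 17.0 and 11.7 CPM after knockdown. The first row was 3.88-fold higher in the knockdown mean and the second 1.45-fold. The share of NM_057410 in the gene's counts was 70.4% and 74.6% in Control and 88.4% and 85.8% in the knockdown. The groups did not overlap in this share. The shares are RSEM's estimates of how reads divide between the transcripts, and with 2 libraries per group the difference in share was not tested. With the transcript rows tested as deposited, neither passed (edgeR adjusted p = 0.0654 and 0.350), in a fit that called 0.0049% of rows.

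**Figure D2:**
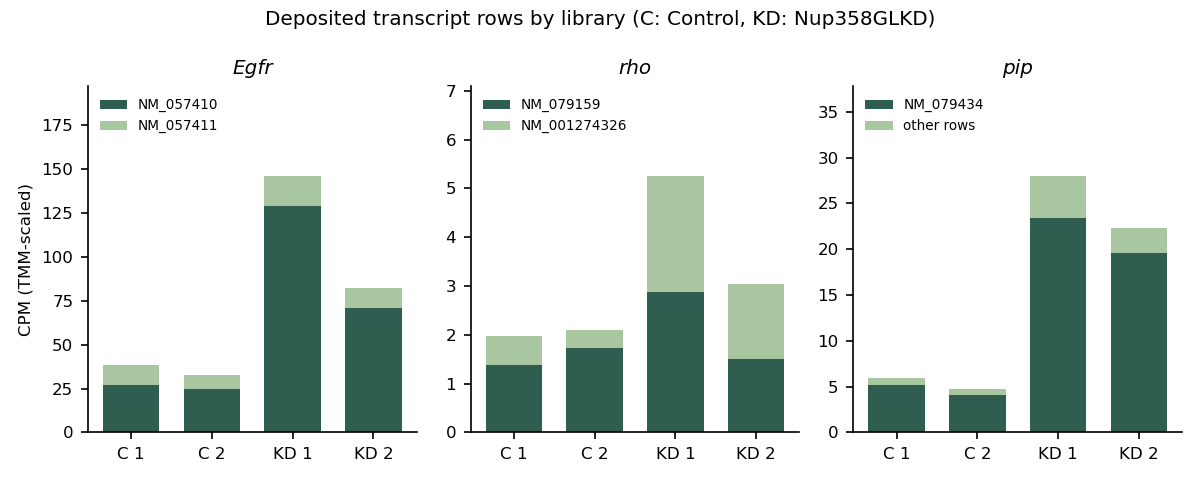
Deposited transcript rows of Egfr, rho and pip in each library, stacked, in TMM-scaled CPM. The row NM_057410 makes up most of the Egfr level and most of its rise, the rows of rho divide differently in the 2 groups, and 1 row carries 83.7% to 87.8% of pip in every library.

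rho, on arm 3L, encodes Rhomboid, the intramembrane protease that frees EGFR ligands. It was the least abundant of the 8 in CPM, with 1.98 and 2.09 CPM in Control and 5.26 and 3.04 CPM after knockdown, which rest on 125 to 288 counts per library. The groups did not overlap. The means were 2.04 ± 0.0755 and 4.15 ± 1.56 CPM (SD, n = 2 each), a ratio of 2.04 that did not pass (log2 change 1.02, SE 0.37, edgeR adjusted p = 0.115). Its row NM_001274326 held 30.6% and 17.8% of the counts in Control and 45.3% and 50.4% in the knockdown, from 38.3 and 23.1 against 130.5 and 92.2 expected counts. The other row, NM_079159, had 86.7 and 106.9 counts in Control and 157.5 and 90.8 in the knockdown.

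The feedback inhibitors did not move alike. kek1 (2L), a leucine-rich repeat transmembrane protein that binds the receptor and blocks it, had 17.3 and 16.5 CPM in Control and 129.6 and 56.0 CPM after knockdown. The Control libraries nearly coincided, and the knockdown libraries were both high but 2.31-fold apart. The means were 16.9 ± 0.621 and 92.8 ± 52.0 CPM (SD, n = 2 each), a 5.49-fold rise (log2 change 2.46, SE 0.46, edgeR adjusted p = 0.0456). The adjusted p was 0.0523 in limma-voom and 0.0538 without a low-count filter. The log2 change was 1.72 without Nup358GLKD replicate 1 and 2.91 without replicate 2. In the mean of both libraries kek1 had the largest fold of the 8, and in replicate 2 alone pip had.

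aos (3L) encodes Argos, a secreted protein that sequesters EGFR ligand. It had 5.84 and 5.19 CPM in Control and 14.6 and 13.2 CPM after knockdown. The knockdown libraries agree within 1.11-fold and lie well above Control. The means were 5.52 ± 0.457 and 13.9 ± 0.995 CPM (SD, n = 2 each), a 2.52-fold rise (log2 change 1.33, SE 0.18, edgeR adjusted p = 0.0329).

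sty (3L) encodes Sprouty, an intracellular inhibitor of receptor tyrosine kinase signalling. It had 16.1 and 15.0 CPM in Control and 24.2 and 15.1 CPM after knockdown. Nup358GLKD replicate 1 was high, and replicate 2 lay between the Control libraries. The ratio of means was 1.26 and did not pass (log2 change 0.34, SE 0.27, edgeR adjusted p = 0.376). Its 2 rows held nearly the same shares in all libraries, 63.4% to 67.1% for NM_168031.

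mirr (3L) encodes Mirror, the Iroquois-family homeodomain protein of dorsal follicle cells. It had 8.17 and 6.95 CPM in Control and 15.9 and 7.34 CPM after knockdown. As for sty, replicate 1 alone was high and the groups overlapped. The ratio of means was 1.54 and did not pass (log2 change 0.62, SE 0.43, edgeR adjusted p = 0.315). Without Nup358GLKD replicate 1 the log2 changes of sty and mirr were −0.04 and −0.05. A pair of mirr rows hold identical values in every library, and the row NM_168505 had 0 counts in all 4, which at 3 counts allows up to 0.0493 to 0.051 CPM.

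pip (3L), expressed in ventral follicle cells, encodes the sulfotransferase Pipe, which modifies the eggshell there. It had 5.98 and 4.70 CPM in Control and 28.0 and 22.3 CPM after knockdown. The libraries of each group lay close together and the groups far apart. The means were 5.34 ± 0.910 and 25.1 ± 4.07 CPM (SD, n = 2 each), a 4.71-fold rise (log2 change 2.23, SE 0.23, edgeR adjusted p = 0.0292), and the log2 change was 2.06 without Nup358GLKD replicate 1 and 2.36 without replicate 2. pip is annotated with many alternative sulfotransferase exons, and the table has 11 rows for it. The row NM_079434 held 87.4% and 85.9% of the counts in Control and 83.7% and 87.8% in the knockdown. Tested on its own, with the rows as deposited, it did not pass (ratio 4.64, edgeR adjusted p = 0.0559). NM_176351 had 0 counts in all libraries. NM_176358 had 77.0 expected counts in Nup358GLKD replicate 1 and 0.01 in replicate 2, and NM_176357 had 0 and 36.4, so the division between these minor rows was not the same in the 2 libraries. Annotated exons of pip overlap those of fal on the opposite strand by 208 bases. The strand setting of the counting is not given, and fal, at 101.1 and 108.3 CPM in Control and 44.6 and 70.8 CPM after knockdown, differed in the other direction.

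ndl (3L) encodes Nudel, a large serine protease that follicle cells secrete towards the oocyte. It was the most abundant of the 8, with 270.4 and 204.3 CPM in Control and 183.2 and 182.1 CPM after knockdown. The knockdown libraries lay below Control and agree within 1.01-fold, so the larger spread was in Control. The means were 237.3 ± 46.7 and 182.7 ± 0.754 CPM (SD, n = 2 each), 1.3-fold lower in the knockdown, which did not pass (log2 change −0.38, SE 0.17, edgeR adjusted p = 0.167). The vitelline membrane genes, which follicle cells make at a similar time, had a median log2 change of −0.32, with 0 of 6 passing, but unlike that of ndl this value turned with the library: it was 0.295 without Nup358GLKD replicate 1 and −1.235 without replicate 2.

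**Figure D3:**
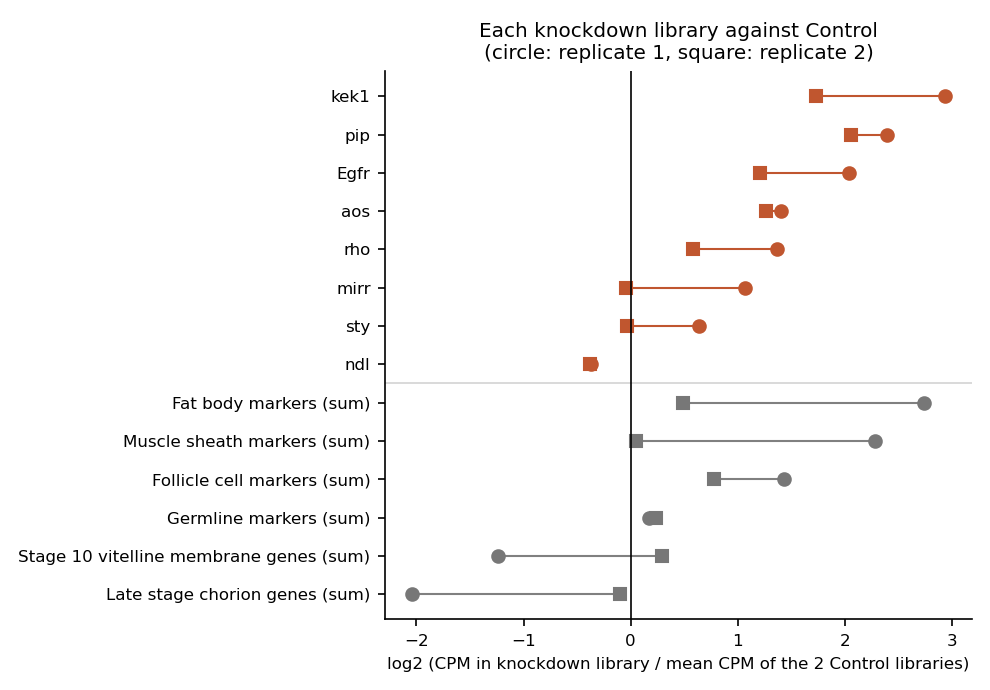
log2 ratio of each knockdown library to the Control mean, for the 8 genes (orange) and for the summed CPM of marker lists (grey); circles are replicate 1 and squares replicate 2. Replicate 1 is the higher of the pair for all 8 genes, by 1.01 to 2.31 times; sty and mirr lie near 0 in replicate 2, as do the muscle sheath and late chorion sums.

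Per kilobase of annotated exon, ndl was also the most abundant gene in Control, at 28.8 ± 5.67 CPM per kb (SD, n = 2), followed by Egfr at 5.12 ± 0.557. Next came kek1 at 2.92 ± 0.107 and sty at 2.86 ± 0.137, which did not differ beyond their spread, and aos at 1.96 ± 0.162 and mirr at 1.94 ± 0.223, which did not either. rho followed at 0.679 ± 0.0252 and pip at 0.487 ± 0.083 CPM per kb. In the knockdown kek1, at 16.0 ± 8.98 CPM per kb, and Egfr, at 16.5 ± 6.51, did not differ beyond their spread, and ndl at 22.2 ± 0.0916 lay within 1 SD of both. aos at 4.93 ± 0.353 overlapped sty at 3.61 ± 1.18 in SD, and mirr at 2.98 ± 1.55 overlapped sty, pip and rho. pip at 2.29 ± 0.371 lay only just clear of rho at 1.38 ± 0.521 in SD. The lengths take all annotated exons together, so they are too long for a gene such as pip of which 1 transcript row dominates, and its level per kb is understated.

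Because follicle cell markers were higher in the knockdown as well, each gene was also set against the summed CPM of the 8 markers within the same library. This ratio was chosen after the values were seen and carries no test. Per 100 CPM of marker RNA, kek1 had 6.04 and 6.72 CPM in Control and 18.1 and 12.3 CPM after knockdown, a ratio of 2.38. pip had 2.08 and 1.92 CPM in Control and 3.92 and 4.87 CPM after knockdown, a ratio of 2.2. Egfr had 13.35 and 13.41 CPM in Control and 20.45 and 18.0 CPM after knockdown, a ratio of 1.44. On this scale the groups did not overlap for these 3 genes, and Nup358GLKD replicate 1 no longer stood higher than replicate 2 for pip.

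The other 5 genes did not follow that order. aos, at 2.03 and 2.12 CPM per 100 CPM of marker RNA in Control and 2.04 and 2.89 in the knockdown, overlapped between the groups, and so did rho, at 0.691 and 0.853 against 0.735 and 0.666. sty had 5.59 and 6.13 in Control and 3.38 and 3.31 in the knockdown, 1.75-fold lower. mirr had 2.85 and 2.84 against 2.22 and 1.61, 1.49-fold lower. ndl had 94.2 and 83.4 against 25.6 and 39.9, 2.71-fold lower. tj, Cad99C and Fas3 weigh most in the sum, and each lay above Control in both knockdown libraries. Fas3 went from 46.3 and 46.2 CPM in Control to 159.4 and 146.4 CPM after knockdown, and in replicate 2 exceeded Cad99C (113.1 CPM). It is also listed below among the target genes of the pathway, and the ratios were not computed without it.

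**Figure D4:**
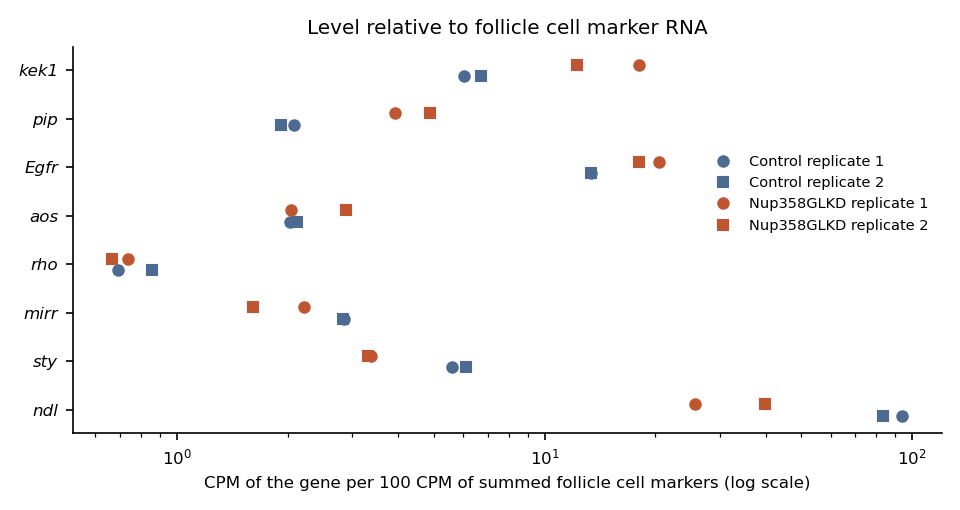
CPM of each gene per 100 CPM of the 8 summed follicle cell markers of the same library, on a log axis. kek1, pip and Egfr lie higher in the knockdown pair than in the Control pair, mirr, sty and ndl lie lower, and aos and rho overlap.

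The wider pathway was read from 8 lists of genes, which hold 73 genes besides the 8 and were also chosen with earlier results known. Of these 73, all tested, 11 rose, 2 fell and 60 did not pass, with a median log2 change of 0.16 (8.77% and 8.01% of all features passed as higher and lower). With Nup358GLKD replicate 1 left out 32 rose and 15 fell, and with replicate 2 left out 33 rose and 21 fell, in fits that called 62.1% and 76.7% of all features. In the first 6 lists below no gene passed as lower in DESeq2 (0 in each list), in a test that passed 17.3% of all features as lower. Nor was any gene of these lists lower at an unadjusted p under 0.05 in edgeR (0 in each list). The share of all features at that unadjusted p is not given here.

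Among 9 genes for EGFR ligands and their processing, 2 rose, 0 fell and 7 did not pass, with a median of 0.74. Star (S), a membrane protein that carries ligand precursors out of the endoplasmic reticulum, had 170.6 and 160.1 CPM in Control and 375.8 and 298.6 CPM after knockdown, a 2.04-fold rise (edgeR adjusted p = 0.0375). stet, a Rhomboid-family protease gene active in the germline, rose 1.67-fold, from 147.1 and 147.2 to 248.7 and 241.5 CPM (adjusted p = 0.0322). The oocyte ligand gene grk had 26.95 and 26.92 CPM in Control and 71.6 and 45.1 CPM after knockdown. Its knockdown libraries were both higher, but it did not pass (ratio 2.17, adjusted p = 0.0609). The other ligand genes lay closer to Control. spi had means of 31.5 and 32.8 CPM (adjusted p = 0.71), Krn 19.8 and 22.0 CPM (0.46), and the neuregulin-like vn 3.27 and 2.40 CPM (0.418).

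Of the 11 genes of the cascade from the receptor to MAP kinase (drk, Sos, Ras85D, Raf, Dsor1, rl, csw, Shc, dos, ksr and cnk), 0 rose, 0 fell and 11 did not pass, with a median of −0.01 (−0.091 without Nup358GLKD replicate 1 and −0.063 without replicate 2) and a range from −0.29 to 0.57. The knockdown pair lay above Control for 4 and below for 4, beside 37.9% and 39.9% of all features. At an unadjusted p under 0.05 edgeR had 1 higher, the adaptor gene Shc (means 55.3 and 77.1 CPM), and 0 lower, and DESeq2 passed 1 as higher and 0 as lower. Of 10 feedback inhibitors, kek1 and aos rose and 8 did not pass, with a median of 0.69. kek5, a relative of kek1, at 48.1 and 104.6 CPM in the 2 means, and edl, which acts on the ETS factors of the pathway, at 3.41 and 7.81 CPM, just missed the threshold (adjusted p = 0.0519 and 0.0534).

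Among 12 nuclear effectors and follicle cell target genes, with mirr among them, 2 rose, 0 fell and 10 did not pass, with a median of 0.42 that became 0.087 without Nup358GLKD replicate 1 and 0.541 without replicate 2. pnt, the ETS activator that MAP kinase switches on, had 18.2 and 17.4 CPM in Control and 29.8 and 30.3 CPM after knockdown, a 1.69-fold rise (edgeR adjusted p = 0.0393) that was lost with total counts (0.0524) and without a filter (0.0531). The adhesion gene Fas3, also a follicle cell marker here, rose 3.31-fold from 46.3 and 46.2 to 159.4 and 146.4 CPM (adjusted p = 0.0285). The dorsal appendage regulator br had 26.1 and 20.8 CPM in Control and 79.4 and 35.2 CPM after knockdown and did not pass (adjusted p = 0.111).

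Of 12 genes that handle Gurken RNA and protein in the oocyte, 3 rose, 0 fell and 9 did not pass, with a median of 0.56. orb, a CPEB-type translation activator, had 712.2 and 694.5 CPM in Control and 2164 and 1688 CPM after knockdown, 2.74-fold higher (edgeR adjusted p = 0.0312). bru1, a translational repressor of germline RNAs, rose 2.16-fold from a mean of 1062 to 2297 CPM (0.0336), and sqd, an hnRNP that anchors grk RNA, 2-fold from 977.4 to 1955 CPM (0.0435).

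Of 11 genes of the BMP pathway, which marks anterior follicle cells, 4 rose, 0 fell and 7 did not pass, with a median of 0.62. Dad, the inhibitory Smad that BMP signalling turns on, had 7.54 and 6.38 CPM in Control and 39.6 and 25.5 CPM after knockdown, 4.68-fold higher (edgeR adjusted p = 0.0322). The BMP-binding secreted proteins cv-2 and sog rose 3.34-fold and 3.08-fold (0.0336 and 0.0489), and the receptor gene put 1.54-fold (0.0416). sog stood at 2.28 and 3.87 times the Control mean in Nup358GLKD replicates 1 and 2. Its call was lost in limma-voom (0.0558), with total counts (0.0572) and without a filter (0.0625), and that of put with total counts (0.0666) and without a filter (0.0612). The ligand gene dpp had 2.71 and 3.04 CPM in Control and 10.8 and 3.88 CPM after knockdown and did not pass (0.149).

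The ventral eggshell genes went both ways. Of the 11, which include pip and ndl, pip rose, 2 fell and 8 did not pass, with a median of −0.35. gd, the first of the germline-made proteases that act after Nudel, had 28.9 and 30.5 CPM in Control and 6.59 and 8.64 CPM after knockdown, a 3.9-fold fall (log2 change −1.96, edgeR adjusted p = 0.0292). snk, the protease after it, fell 2.55-fold from 16.2 and 17.2 to 6.68 and 6.41 CPM (log2 change −1.35, adjusted p = 0.0299). For both genes the knockdown libraries lay close together and below Control. The last protease, ea, had means of 49.1 and 44.3 CPM and did not pass (adjusted p = 0.44). wbl, the endoplasmic reticulum chaperone that Pipe needs, had 10.8 and 10.8 CPM in Control and 30.4 and 18.7 CPM after knockdown and did not pass (adjusted p = 0.0623). Of 6 genes of the Toll receptor and its Dorsal branch, 0 rose, 0 fell and 6 did not pass, with a median of −0.29; at an unadjusted p under 0.05 edgeR had 1 higher (the receptor gene Tl) and 1 lower (the kinase gene pll), and DESeq2 passed 1 and 1.

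**Figure D5:**
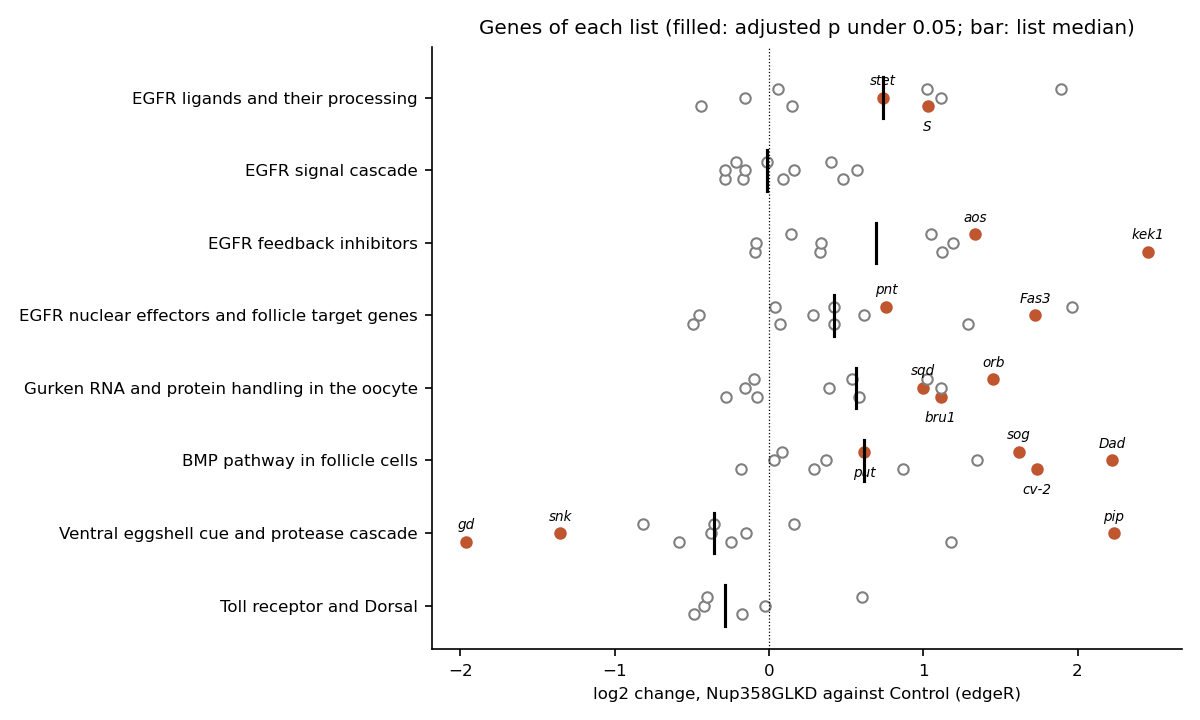
log2 change of every tested gene in the 8 pathway lists, with filled points for genes that passed the test and a black bar for the list median. The cascade lies around 0, while kek1, pip and Dad lie above 2 and gd and snk below −1; some genes belong to more than 1 list.

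For each of the 8 genes the tested gene with the most similar profile was sought by the Euclidean distance of log2 CPM, centred per gene, over the 4 libraries, among 7058 genes with a mean of at least 5 CPM. With 4 libraries and so many candidates, close profiles are found for any gene. Egfr lay nearest to Samuel (distance 0.0651), with 30.1 and 26.7 CPM in Control and 112.9 and 66.7 CPM after knockdown. aos lay nearest to glo (0.0707), a germline hnRNP gene, kek1 to CG17124 (0.0771) and pip to Tdc1 (0.107), a tyrosine decarboxylase gene at 1.97 and 1.59 CPM in Control and 11.0 and 8.72 CPM after knockdown. sty lay nearest to the tRNA methyltransferase gene Trm1 (0.0143), rho to the metalloprotease gene Meltrin (0.0295), mirr to the filamin-like jbug (0.0336) and ndl to Br140 (0.0703).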

How the data were processed

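RNA was measured in 2 Control and 2 Nup358GLKD ovary libraries, made with a TruSeq kit after poly(A) enrichment, per the labels' protocols. The submitters' processing notes name Bowtie2, RSEM and build dm3. Their versions, the annotation release and the strand setting were not given in the sources used here. The deposited table holds expected counts per transcript, per the file header, not scaled for depth or length. Of its 34437 RefSeq rows, 32852 (95.4%) were named with an NCBI RefSeq gene table (Release 6, used for names and chromosome arms only) and summed per gene; unnamed, transposon and cluster rows were kept, and values were rounded. edgeR 4.0.16 in R 4.3.3 (glmQLFit robust, legacy=FALSE, glmQLFTest, TMM, filterByExpr with minimum count 10 and total 15, prior count 0.125) compared the groups over all features. The SE is the log2 change over the root of F, and profiles were compared on log2 (CPM + 1). Exon lengths and overlaps come from Ensembl's annotation of another build. Alternatives were RLE, upper-quartile and total-count scaling, DESeq2 1.42.0, voom of limma 3.58.1, other filters, a replicate block, unsummed rows and leaving out each library. The code was tested on simulated counts. Floors cover counting error only.

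The genes and lists were chosen with earlier results of these data known. The text names the 8 genes, Nup358, up to 4 passing genes with the smallest p per pathway list, 11 pathway genes whether they passed or not (grk, spi, vn, Krn, pnt, br, gd, snk, ea, wbl and dpp) and each gene's nearest profile. kek5, edl, Shc, Tl, pll, fal and single markers were named after their values were seen. Sequences of these genes were not used here.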

Additional observations from a re-analysis of the deposited data

How the results depend on the processing

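The count of 4 genes passing as higher stayed at 4 with RLE, upper-quartile and total-count scaling, DESeq2 (18.8% of features passed as higher) and a mean of at least 5 CPM. It was 3 in limma-voom and 2 without a filter, where more features are tested. Leaving out 1 library gave 0 to 7 genes higher and 0 lower. The 11 higher and 2 lower pathway genes became 24 and 4 in DESeq2, 0 to 33 and 0 to 21 on leaving out 1 library, and 8 to 15 higher and 2 lower otherwise. These pathway counts were added after seeing the data. sty and mirr had log2 changes of −0.042 and −0.047 without Nup358GLKD replicate 1 and 0.605 and 1.038 without replicate 2, and no other gene of the 8 changed direction. Adjusted p ranged from 2.37e-05 to 0.372 for Egfr, 5.11e-07 to 0.358 for kek1, 1.49e-06 to 0.394 for aos and 5.76e-13 to 0.331 for pip. With unsummed rows, the leading rows of these 4 had 0.0654, 0.0687, 0.0689 and 0.0559. Total counts moved the median of all features to −0.115. The labels do not say that replicate numbers pair libraries; deviations of same-numbered libraries correlated at 0.283. With the replicate block 4 of the 8 genes and 12 and 2 pathway genes passed, and the calls of pnt, put and sqd were lost (0.0572, 0.055 and 0.0501). rho was left out by the mean of at least 5 CPM. The cause of these shifts was not tested.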
